A study of Mus musculus with 39 samples.

Results

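Rab GTPases are small, membrane-associated GTP-binding proteins that give each compartment of the secretory and endocytic pathways its identity. A Rab is loaded with GTP by an exchange factor (GEF), binds effectors such as tethers, motors and lipid kinases while it carries GTP, and is switched off by a GTPase-activating protein (GAP). The proteins are made in the cytosol, and escort proteins present them to a geranylgeranyl transferase that attaches lipids to cysteines at the end of the chain, after which they can enter a membrane. In liver, Rabs direct the secretion of plasma proteins, the uptake of receptors at the sinusoidal face, transcytosis to the bile canaliculus, lipid droplets and autophagy. This report describes how the RNAs of the Rab family were spread over density gradients of liver homogenate.

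The members were all rows whose symbol is Rab followed by a number, with at most 1 letter and 1 further digit, so that Rab-binding proteins and Rab-like GTPases stayed out. The rule found 45 members among the 13230 genes that both tables hold, 48 in gradient 1, 46 in gradient 2 and 49 in either. The rule reads symbols only, and a gene is listed only where it passed 1 TPM in a fraction.

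Livers of female wild-type FVB mice, with no treatment or altered allele, were homogenized without detergent, cleared of nuclei and spun into 10 to 50% sucrose. Each of 2 biological replicate gradients was cut into numbered fractions, and rRNA-depleted libraries were made from fractions of each, 17 from gradient 1 (4 to 19 and 21) and 22 from gradient 2 (3 to 24). The question was how far RNAs separate by the structures they travel with. Values are TPM, which are scaled to transcript length and sum to nearly the same total in every library, so they measure the share of a library that an RNA takes, not its amount in a fraction, and they carry no read depth. Fractions were compared in 3 zones defined by fraction number: light (4 to 7), middle (10 to 13) and dense (16 to 19). For each gene and gradient the 4 log2(TPM + 1) values of a zone were averaged, and the 2 gradients were the replicates (limma, Benjamini-Hochberg adjusted p below 0.05, 11754 genes with a mean of at least 1 TPM). A zone's 8 libraries are neighbouring cuts of the same 2 gradients and were not treated as separate replicates. Hepatocyte markers were by far the most abundant of the cell type lists in every zone, and their summed level was highest in the light zone, at 48548 and 34964 TPM in gradients 1 and 2 against 8417 and 13126 TPM in the middle and 9482 and 18941 TPM in the dense zone. Alb alone reached up to 41231 TPM in gradient 1. Of the 6 hepatocyte markers, 3 were called lower and 1 higher in the dense than in the light zone, beside 39.6% and 22.3% of all genes. As zone means, summed markers of Kupffer cells reached at most 137 TPM, of sinusoidal endothelial cells 59.4 TPM and of stellate cells 51.3 TPM, and these lists were also highest in the light zone. Leukocyte and cholangiocyte markers reached at most 9.23 and 5.43 TPM. Of the erythroid list 1 of 4 genes was in the tables (Hba-a1), with a zone mean of up to 387.5 TPM in the light and at most 79.9 TPM in the dense zone, and the stellate marker Col1a1 and the cholangiocyte marker Epcam were in neither table. Their part in the Rab values below was not tested.

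All 49 members have at least 1 cysteine codon among the last 4 codons of the coding sequence, where the lipid is attached. The last 30 coding bases of the members on which the zone and paralog comparisons turn are shown here, stop codon included, so that close relatives can be told apart (GENCODE M21 transcripts, GRCm38, transcript strand, cysteine codons in capitals).
Rab7: aaggcctccgcagaaagcTGCagtTGTtga
Rab28: cctcggagctccatgTGTgcagtgcagtga
Rab5a: ccagccagaagccagTGTTGTagtaactga
Rab5b: cagaacaagagccagTGTTGTagcaactga
Rab5c: gccagccggagccagTGCTGCagcaactga
Rab11a: ccaaaggtgcagTGCTGTcagaacatctaa
Rab11b: aacaagctgcagTGCTGCcagagcctgtga
Rab8a: accagcttcttccggTGCagtctcctgtga
Rab8b: accagtttcttccgcTGTtctctgctttga
Rab4a: gctccaagtgcacaggagTGTggcTGCtag
Rab4b: gccgtggcccctcagcccTGTggcTGCtga
Rab22a: ccatcggagccaaagcgaagcTGCTGCtga
Rab31: agcttgcaagccagccgtcggTGCTGCtga
Rab5a, Rab5b and Rab5c carry a cysteine pair ahead of 2 further codons, Rab11a and Rab11b a pair ahead of 3, and Rab8a, Rab8b and Rab28 a lone cysteine ahead of 3 further codons. Over the family, 14 members end in 2 cysteine codons and 14 have cysteine as the last and third-from-last codon.

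A few members made up most of the Rab TPM. Averaged over fractions with equal weight, which is not a level in whole liver, Rab7, the late endosomal and lysosomal Rab, was highest, with a mean of 336.7 ± 35.8 TPM (SD between the 2 gradients) over the shared fractions, 13.3% of all Rab TPM. It was followed by Rab1b, which acts between the endoplasmic reticulum (ER) and the Golgi, at 186.6 ± 15.8 TPM, and by the early endosomal Rab5c at 169.9 ± 25.2 TPM. Rab43, a Golgi Rab, stood at 167.7 ± 17.0 TPM and Rab1a at 162.6 ± 24.3 TPM, and these 4 neighbours in the order differed by less than the sum of their SDs. Rab14, which acts between the trans-Golgi network and endosomes, stood at 147.5 ± 16.4 TPM and Rab5b at 139.2 ± 2.62 TPM. Rab8a, a Rab of polarized exocytosis, stood at 114.7 ± 12.2 TPM, Rab2a of the ER-Golgi interface at 113.9 ± 0.283 TPM and Rab5a at 80.57 ± 11.2 TPM. The first 7 members made up 51.9% of Rab TPM. The median over the 42 tested members was 34.2 TPM, against 15.7 TPM over all genes tested, and 14 of the 45 members had a mean under 10 TPM. The order changed with the zone, and in the light zone Rab43 averaged 289.6 and 220.8 TPM against 209.3 and 219.0 TPM for Rab7.

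Summed over the members, Rab RNA was highest in the middle zone of both gradients. The sum was 2617 TPM in the light, 3207 TPM in the middle and 2309 TPM in the dense zone of gradient 1, and 2317, 2863 and 1770 TPM in gradient 2. Of the 42 tested members, 18 had their highest zone mean in the middle zone of both gradients, which is 42.9% against 24.4% of all genes. In 14 members the light zone was highest in both gradients (33.3%, against 42.7% of all genes). The dense zone was highest in both gradients for 0 of 42 members and for 21.2% of all genes, and in gradient 1 alone for 8 members. It was the lowest zone in both gradients for 25 members, 59.5% against 43.7%.

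**Figure D1:**
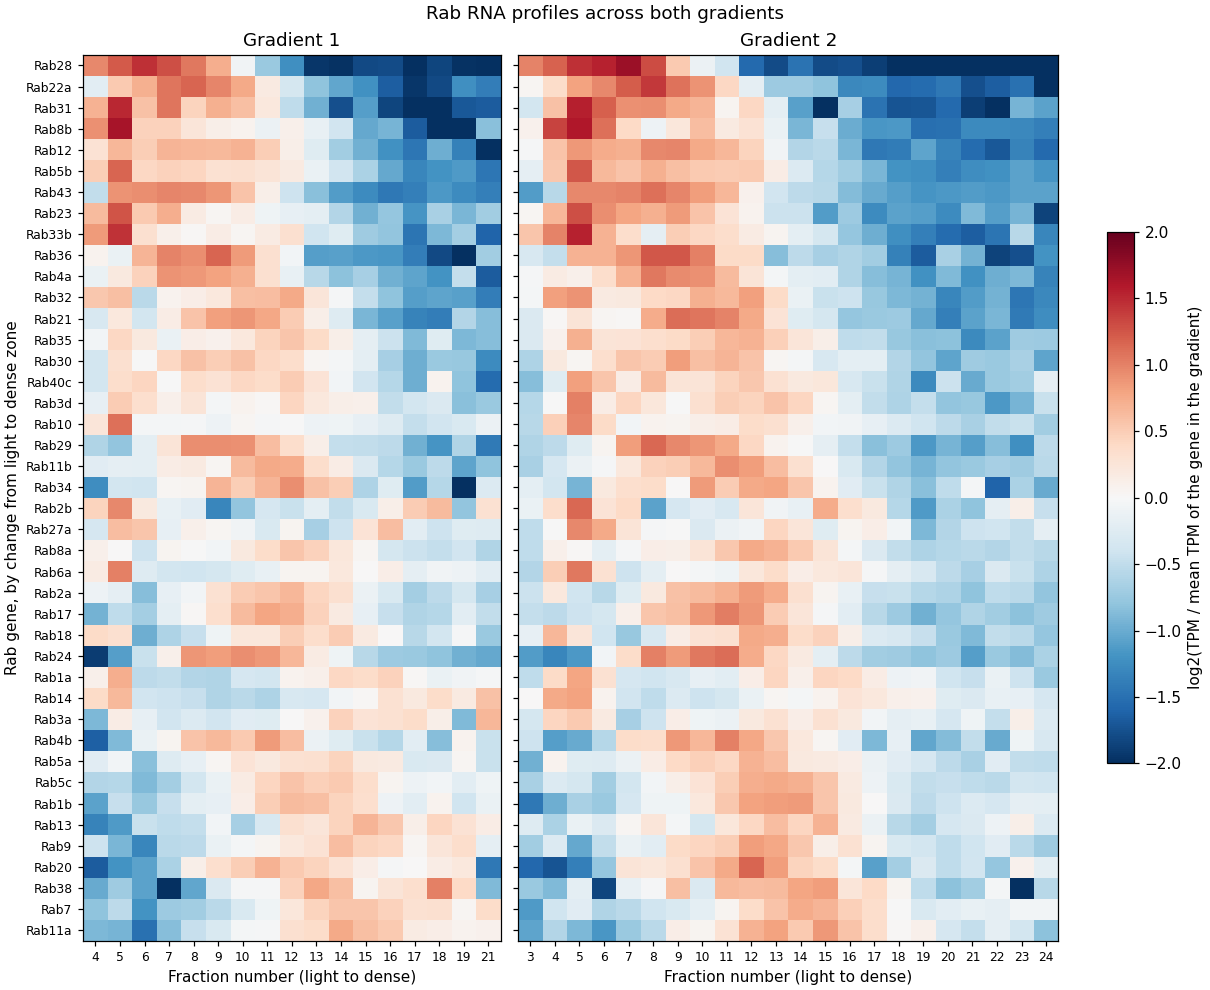
Sedimentation profiles of the 42 tested Rab RNAs in gradient 1 (left) and gradient 2 (right). Columns are fractions from light to dense, rows are genes ordered by dense minus light zone, and colour is log2 of the TPM over the gene's mean TPM in that gradient (values below -2 or above 2 take the end colour). Rab28 and Rab22a at the top were concentrated in light fractions, Rab24, Rab4b and Rab2a in middle ones, and Rab11a and Rab7 at the bottom around fraction 14.

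The profiles of most members repeated between gradients. Pearson's R over the 17 shared fractions had a median of 0.922, against 0.899 over all genes, and exceeded 0.9 in 22 of 42 members (52.4%, against 49.8% of all genes). The range was 0.134 to 0.99. Rab22a was at the top of it, and the lowest was Rab3a, a Rab of regulated secretion, at a mean of 8.21 TPM. R was under 0.6 in 6 members (Rab3a, Rab13, Rab27a, Rab2b, Rab38 and Rab9) and in 1755 of 11754 genes tested. Neighbouring fractions are not independent, so these values describe the curves and were given no p. Between different members the median R over 861 pairs was 0.251 over the 17 fractions of gradient 1 and 0.494 over the 22 of gradient 2, where the median over all pairs of tested genes was 0.067 and 0.117, so the Rabs were not of 1 profile. The TPM-weighted mean fraction number, called the center, ran from 7.937 and 7.881 for Rab28 to 13.52 for Rab38 in gradient 1 and 13.0 for Rab11a in gradient 2. The members' median center was 11.43 and 11.21, beside 11.26 over all genes in both gradients.

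From the light to the dense zone the family spread widely. Rab28, Rab22a and Rab31 fell most, Rab11a rose most, and 24 of 42 members did not pass the test. The RNAs of 15 members fell (35.7%, where 39.6% of all genes tested did) and those of 3 rose (7.14%, where 22.3% of all genes did), and in either direction 61.9% of all genes were called. The members' median change was -0.427 on the log2(TPM + 1) scale, the same as the all-gene median of -0.427. The change had the same sign in both gradients in 35 of 42 members (83.3%) and in 92.0% of all genes. With the gradient as a block, 23 members fell and 7 rose, with 50.0% and 30.5% of all genes. After quantile normalization, which moved the all-gene median to -0.053, the members' split was 14 lower and 5 higher, beside 29.9% and 30.7% of all genes. The 3 rises became 1 when the light-zone value of gradient 1 or 2 was left out (15.6% and 14.9% of all genes) and 8 without the dense-zone value of gradient 2 (23.7% of all genes). Of the 18 calls, 12 held in every alternative in which the gene was tested (Rab8b, Rab23, Rab31 and Rab33b were not under the filter of 10 TPM), and those lost in at least 1 were Rab7, Rab38, Rab10, Rab32, Rab35 and Rab36.

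**Figure D2:**
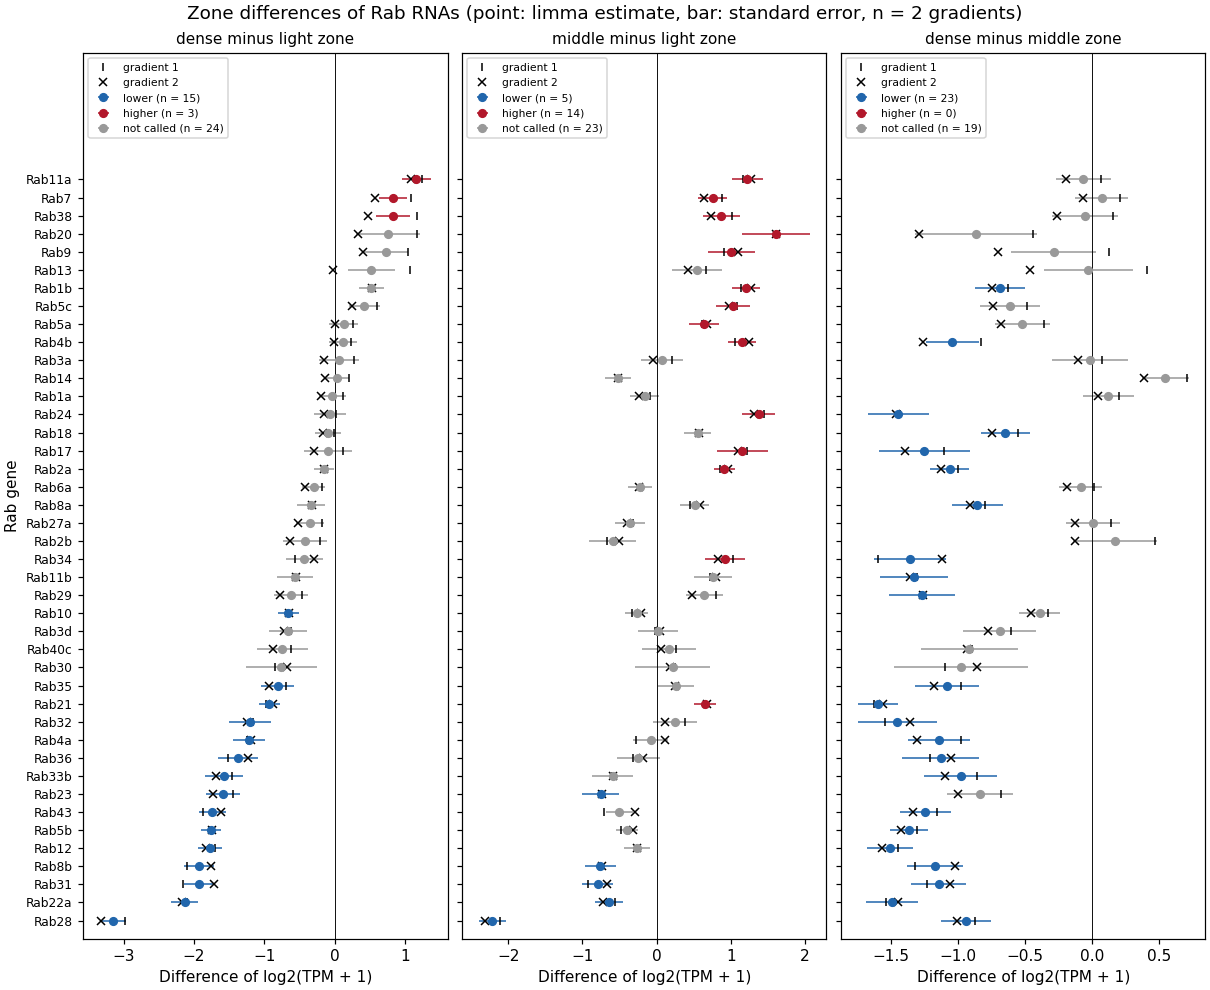
Differences between zones on the log2(TPM + 1) scale for the 42 tested Rab RNAs, in the same gene order in each panel. Circles with bars are limma estimates with standard errors (n = 2 gradients), blue and red mark members called lower and higher, and the small marks are the single gradients. The left panel runs from -3.15 for Rab28 to 1.16 for Rab11a, and the right panel holds 23 lower and 0 higher calls.

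Rab28, linked to the cilium and to photoreceptor upkeep, had the lightest RNA of the family by center (gene at chr5:41624976-41708157, minus strand). It lay between 41.4 and 65.7 TPM in the 8 light libraries (median 53.7), between 5.54 and 20.3 TPM in the middle ones (median 10.9) and between 3.83 and 6.16 TPM in the dense ones (median 5.42). Every light library was above every library of the other zones. The change from light to dense was -3.15 ± 0.185 (SE, adjusted p = 0.000301), and the fall was already -2.21 ± 0.185 by the middle zone (adjusted p = 0.0012).

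Rab22a and Rab31 are relatives of the early endosome branch with 71.1% identical residues, and both were light. Rab22a (chr2:173659760-173707343, plus strand), which acts in endosomal sorting, lay between 39.5 and 95.9 TPM in the light, 19.9 and 77.1 TPM in the middle and 11.1 and 19.7 TPM in the dense libraries. It peaked at fraction 8 of both gradients and fell by 2.13 on the log2 scale to the dense zone (SE 0.194, adjusted p = 0.000533). Rab31 was scarcer, between 4.24 and 10.9 TPM in the light and 0.566 and 1.79 TPM in the dense libraries, and fell by 1.94 (SE 0.204, adjusted p = 0.000782). Light and dense libraries did not overlap for either gene, although Rab31 peaked earlier, at fraction 5.

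Among other light members, Rab8b, Rab12, Rab5b, Rab43 and Rab23 had light and dense libraries without overlap. Rab12, which acts in recycling to lysosomes and in autophagy, went from a median of 42.3 TPM over the light to 11.9 TPM over the dense libraries, a change of -1.77 ± 0.171 (adjusted p = 0.000634). Rab43 was most abundant in the light zone, with a median of 265.6 TPM (91.1 to 352.7) against 68.4 TPM in the dense zone (59.3 to 80.9), a change of -1.74 ± 0.188 (adjusted p = 0.000837). Rab43 overlaps 3 other annotated genes on its strand (9930120I10Rik, Gm44423 and Gm45140), with which reads may have been shared. Rab23, a negative regulator of Hedgehog signalling at the cilium, fell by 1.59 (SE 0.246, adjusted p = 0.00273). Over all genes, 28.9% had 8 dense libraries below all 8 light ones, and 14 Rabs did.

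Of the RNAs that rose, only Rab11a had every dense library above every light one, as 16.9% of all genes did, with 17.6 to 29.9 TPM in the light libraries (median 25.1), 41.2 to 70.2 TPM in the middle (median 58.8) and 40.4 to 78.1 TPM in the dense ones (median 58.0). Rab11a (chr9:64715299-64737758, minus strand) directs recycling endosomes to the cell surface. Its change from light to dense was 1.16 ± 0.208 (adjusted p = 0.0047), and it overlaps 1 annotated gene on its strand, Gm47308. Rab7 (chr6:87999106-88045270, minus strand) went from 158.7 to 253.5 TPM in the light libraries to between 240.8 and 495.9 TPM in the dense ones, with a slight overlap, a change of 0.83 ± 0.197 (adjusted p = 0.0129). It was not called after quantile normalization (adjusted p = 0.103). Rab38, known for its part in lysosome-related organelles, rose by 0.82 ± 0.246 (adjusted p = 0.0288) at a low level of 0.431 to 1.93 TPM in the light and 1.5 to 5.24 TPM in the dense libraries, where the pseudocount of 1 makes the change look smaller. The change of Rab38 was 1.17 in gradient 1 and 0.475 in gradient 2, and its profiles had R of 0.515 between gradients. The other members among the 8 most positive changes did not pass the test. They were Rab20 at 0.75 ± 0.455, the late endosome to Golgi Rab9 at 0.72 ± 0.318, the tight junction Rab13 at 0.52 ± 0.333, Rab1b at 0.52 ± 0.184 (adjusted p = 0.0504) and Rab5c at 0.42 ± 0.225. With the gradient as a block Rab1b (adjusted p = 0.00467), Rab5c (adjusted p = 0.0245), Rab9 (adjusted p = 0.0254) and Rab20 (adjusted p = 0.031) were called higher.

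Between the light and the middle zone more members rose than fell. The RNAs of 14 members rose (33.3%, where 23.5% of all genes did) and those of 5 fell (11.9%, where 24.1% did), with a median change of 0.231 beside 0.046 over all genes. Rab20, an endosomal and phagosomal Rab, rose most, from a median of 11.1 TPM to 38.3 TPM, a change of 1.61 ± 0.455 (adjusted p = 0.0311), and no middle library fell below the highest light one. Rab24, an atypical Rab of autophagy, rose by 1.38 ± 0.227 (adjusted p = 0.00538), Rab11a by 1.22 ± 0.208 (adjusted p = 0.00593), Rab1b by 1.20 ± 0.184 (adjusted p = 0.00431) and the epithelial transcytosis gene Rab17 by 1.16 ± 0.34 (adjusted p = 0.0353). Rab2a rose by 0.91 ± 0.143 (adjusted p = 0.00466), from 63.1 to 120.6 TPM in the light to 154.5 to 186.4 TPM in the middle libraries. The 5 falls were those of Rab28, Rab31, Rab8b, Rab23 and Rab22a. With the gradient as a block 18 rose and 10 fell, beside 37.2% and 35.0% of all genes. The balance moved with scaling, to 13 higher and 11 lower after quantile normalization (27.0% and 24.2% of all genes). Without the 50 most abundant genes it was 11 higher and 8 lower (21.2% and 27.3% of all genes). Single zone values also weighed on it, as 5 members rose when the light-zone value of gradient 1 or 2 or the middle-zone value of gradient 1 was left out, where 12.7%, 13.0% and 12.6% of all genes rose, so that the larger share among Rabs was no longer seen. Without the middle-zone value of gradient 2, 7 rose, beside 17.4% of all genes. Each of these fits leaves 1 zone with a value from 1 gradient only. The members' median turned to -0.061 without the middle-zone value of gradient 1 and was 0.027 without the light-zone value of gradient 2. Rab11a, Rab1b, Rab24, Rab28, Rab2a and Rab4b kept their calls in every alternative.

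From the middle to the dense zone a larger share of Rab RNAs fell than of all genes. The RNAs of 23 of 42 members fell (54.8%, where 22.5% of all genes did), and the median change was -0.927 beside -0.279 over all genes. In limma 0 members rose, 1 did so at an unadjusted p below 0.05, and 4.79% of all genes rose. In either direction 27.3% of all genes were called. Rab21, an early endosomal Rab, fell most, from a median of 82.2 TPM in the middle to 25.5 TPM in the dense libraries, a change of -1.59 ± 0.149 (adjusted p = 0.007). Rab12 (-1.50 ± 0.171), Rab22a (-1.49 ± 0.194), Rab32 (-1.45 ± 0.297), Rab24 (-1.44 ± 0.227) and Rab5b (-1.36 ± 0.144) followed. Rab34, known from the positioning of lysosomes and from ciliogenesis, went from 10.8 to 14.7 TPM in the middle to between 0.752 and 6.86 TPM in the dense libraries, a change of -1.36 ± 0.269 (adjusted p = 0.0171). Rab29, a Golgi and lysosome Rab that works with the kinase LRRK2, changed by -1.26 ± 0.248 (adjusted p = 0.0165). In 19 members all dense libraries were below all middle ones, where 19.3% of all genes had this, and in 1, Rab14, they were above them (5.45% of all genes). After quantile normalization, which put the all-gene median at 0.035, 15 members fell (13.7% of all genes) and 1, Rab14, rose (adjusted p = 0.0296), with a members' median of -0.565. With the gradient as a block 31 fell (39.3% of all genes) and Rab14 rose (adjusted p = 0.0164), as 14.1% of all genes did. With the middle-zone value of either gradient left out, limma called 0 members and 0 of 11754 genes, with 20 members lower at an unadjusted p below 0.05 without gradient 1 and 24 without gradient 2. Without the light-zone value of gradient 1 or 2, 11 members fell (14.4% and 14.2% of all genes), and without the dense-zone value of gradient 2 it was 12 (13.8% of all genes).

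**Figure D3:**
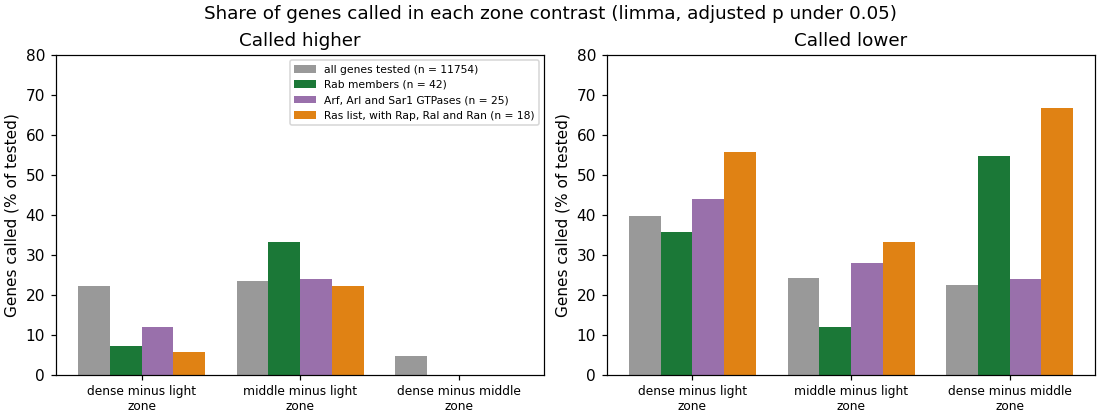
Share of genes called higher (left) and lower (right) in each zone contrast, for all genes tested, Rab members and 2 other branches of small GTPases, as bars in percent of the genes tested. Rab members called lower from the middle to the dense zone made up 54.8%, beside 22.5% of all genes and 66.7% of the Ras list, which holds Ran beside Ras, Rap and Ral relatives.

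By the compartment a Rab serves, each group holds few genes, and no group was tested as such. Beside the counts, 39.6% of all genes fell and 22.3% rose from light to dense, 22.5% fell from middle to dense and 23.5% rose from light to middle, and with the gradient as a block these shares were 50.0%, 30.5%, 39.3% and 37.2%. From middle to dense 6 of 8 early endosome, 6 of 10 ER-Golgi, 5 of 8 late endosome and 5 of 9 recycling Rabs fell. The block moved these counts to 8, 7, 5 and 6. Of the 3 Rabs of regulated secretion 0 fell (median -0.016), and of the 4 of the cilium and other roles 1 fell (median -0.888). The block moved these to 1 and 4. From light to middle 4 of 8 early endosome, 2 of 10 ER-Golgi, 5 of 8 late endosome and 2 of 9 recycling Rabs rose, which the block moved to 4, 3, 6 and 4. Of the 8 early endosome Rabs, 5 fell from light to dense (Rab22a, Rab31, Rab5b, Rab4a and Rab21), with a median of -1.08. In this group 0 rose from light to dense, also at an unadjusted p below 0.05 in limma, while Rab5c was called higher with the block (adjusted p = 0.0245). Of 10 Rabs of ER-Golgi traffic, 3 fell from light to dense (Rab43, Rab33b and Rab36), 0 rose in limma and 1, Rab1b, did so at an unadjusted p below 0.05 and with the block, and the median was -0.36. With the block 5 of them fell, Rab6a (adjusted p = 0.0451) and Rab30 included. Of 8 tested Rabs of the late endosome, lysosome and autophagy, Rab7 and Rab38 rose from light to dense and Rab12 and Rab32 fell. With the block 3 rose and 4 fell, with Rab29 (adjusted p = 0.00634) and Rab34 (adjusted p = 0.0432) among the falls. Of 9 Rabs of recycling and polarized exocytosis, Rab11a rose from light to dense and Rab8b, Rab35 and Rab10 fell, and with the block 5 fell. Rab10, which carries insulin-regulated and basolateral cargo, changed by -0.66 ± 0.153 (adjusted p = 0.0119). The 3 Rabs of regulated secretion, Rab3a, Rab3d and Rab27a, had changes of 0.06 ± 0.283, -0.67 ± 0.27 and -0.35 ± 0.202, of which 0 passed the test in limma and 1, Rab3d, had an unadjusted p below 0.05 and was called lower with the block (adjusted p = 0.00305). So was Rab40c, of the remaining group (adjusted p = 0.00231).

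Close relatives often parted. Over 13 pairs of paralogs with both members tested, with 48.8 to 92.5% identical residues, the median R between the profiles of a pair was 0.132 in gradient 1 and 0.437 in gradient 2. Sequence that reads could not tell apart was rare, as stretches of 31 bases shared within a pair made up at most 0.42% of those in either annotated transcript. The differences between paralogs below are given per gradient and were not tested.

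The 3 Rab5 genes encode proteins that control fusion at the early endosome. Rab5b (chr10:128677175-128696264, minus strand) was light, with 175.7 to 315.8 TPM in the light libraries and 51.4 to 74.4 TPM in the dense ones, a change of -1.76 ± 0.144 (adjusted p = 0.00042). Rab5a lay between 49.4 and 85.5 TPM in the light, 89.4 and 110.3 TPM in the middle and 52.7 and 100.5 TPM in the dense libraries, a change from light to dense of 0.13 ± 0.204 that did not pass the test. Rab5c went from 86.9 to 126.8 TPM in the light to between 169.4 and 277.8 TPM in the middle libraries and back to between 99.8 and 195.2 TPM in the dense ones. The change of Rab5a exceeded that of Rab5b by 2.03 in gradient 1 and 1.74 in gradient 2, and the change of Rab5b minus that of Rab5c was -2.38 and -1.98. Rab5a and Rab5c had like profiles, with R of 0.835 and 0.861, while Rab5b and Rab5c had R of -0.354 and 0.179.

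Rab11a and Rab11b, with 90.7% identical residues, differed by 1.82 in gradient 1 and 1.64 in gradient 2 in their change from light to dense. Rab11b peaked at fraction 11 of both gradients, with 39.7 to 61.4 TPM in the middle and 13.6 to 25.2 TPM in the dense libraries, and fell by 1.33 between those zones (SE 0.253, adjusted p = 0.0151). Rab11a peaked at fractions 14 and 15 and changed by -0.06 ± 0.208 between them. The 3′ UTR of Rab11b measured 5184 bases and that of Rab11a 1550 bases. From light to dense Rab11b changed by -0.57 ± 0.253, which was called with the gradient as a block (adjusted p = 0.00297).

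Rab8a and Rab8b, of polarized exocytosis, have 83.6% identical residues and differed by 1.75 and 1.43. Rab8a peaked at fraction 12 of both gradients, with 115.9 to 182.1 TPM in the middle libraries, and changed from light to dense by -0.34 ± 0.193, called lower with the block (adjusted p = 0.0217). Rab8b peaked at fraction 5, at 4.52 to 15.6 TPM in the light and 0.685 to 2.62 TPM in the dense libraries, and fell by 1.93 (SE 0.211, adjusted p = 0.000869). Their 3′ UTRs were alike in length, at 3767 and 4055 bases. The change of Rab10 minus that of its relative Rab8a was -0.318 and -0.327.

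Rab4a and Rab4b, which act in rapid recycling from early endosomes, have 86.9% identical residues. Rab4a fell from light to dense by 1.22 (SE 0.231, adjusted p = 0.0057) and Rab4b changed by 0.11 ± 0.195. The change of Rab4a minus that of Rab4b was -1.48 in gradient 1 and -1.19 in gradient 2. Both overlap annotated read-through or predicted genes on their strand (Gm20388 for Rab4a, Gm21983 and Mir3101 for Rab4b). Rab32 and Rab38, relatives that act in lysosome-related organelles, lay further apart, with Rab32 falling by 1.20 (SE 0.297, adjusted p = 0.0149), Rab38 rising, and the first change minus the second at -2.33 and -1.72.

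The other pairs were mixed. Rab1a and Rab1b, the closest pair at 92.5% identical residues, had R of 0.132 and 0.21. Rab1a peaked at fraction 5 of both gradients and held 117.0 to 193.6 TPM in the middle libraries, while Rab1b peaked at fractions 12 and 14 with 187.9 to 307.0 TPM in the middle. Rab1a changed by -0.04 ± 0.192 from light to dense. Rab2a and Rab2b had R of -0.575 and 0.00447. Rab2a peaked at fraction 12 and Rab2b, at 4.31 TPM on average, at fraction 5. The profiles of Rab2b itself had R of 0.501 between gradients, which limits how far the R of this pair can be read. Rab2b changed by -0.42 ± 0.311 from light to dense. Rab3a and Rab3d differed by 0.895 and 0.572 with Rab3a higher. Rab30 and Rab43 shared a profile, with R of 0.78 and 0.838, but the change of Rab30 exceeded that of Rab43 by 1.02 and 0.942, and Rab30 at -0.76 ± 0.501 was called only with the block (adjusted p = 0.00175). Rab22a and Rab31 had R of 0.804 and 0.869.

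**Figure D4:**
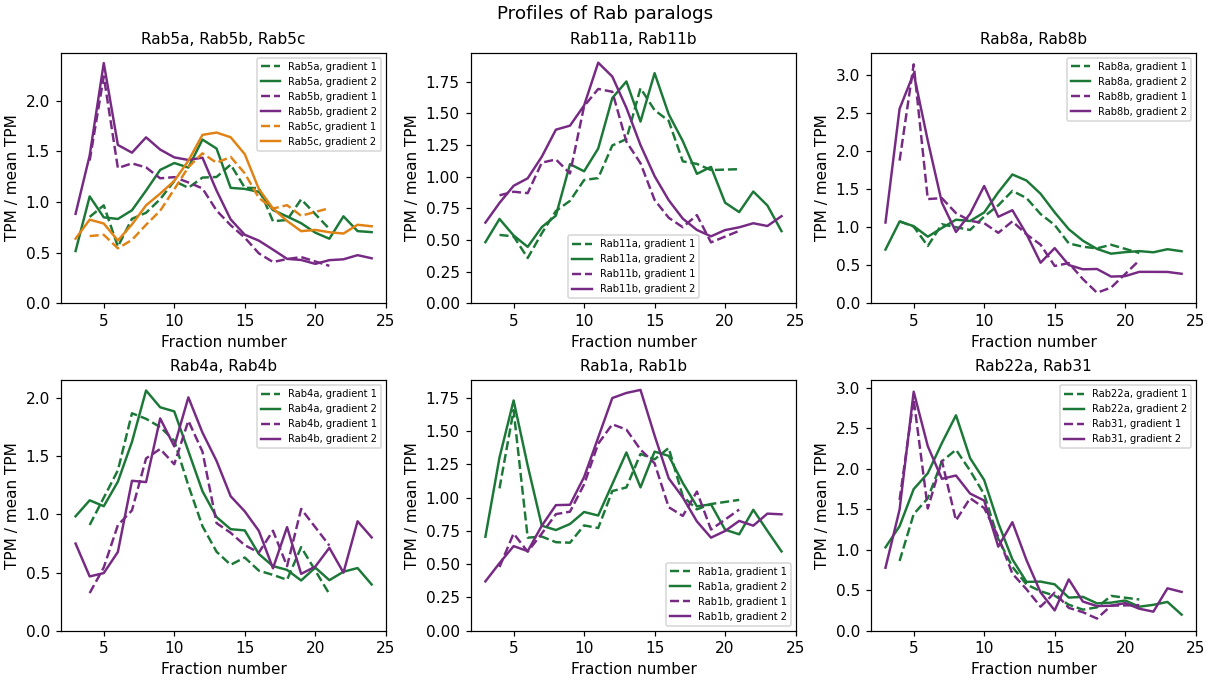
Profiles of 6 sets of Rab paralogs, as TPM over the gene's mean TPM in the gradient against fraction number, with gradient 1 dashed and gradient 2 solid. Rab5b, Rab8b, Rab31 and Rab1a have their highest value at fraction 5 of both gradients, and Rab5a, Rab5c, Rab8a and Rab1b at fractions 12 to 14.

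A sharp maximum at fraction 5 marked some of these RNAs, a feature singled out after the profiles were seen. Fraction 5 was the highest of all fractions in both gradients in 12 of 42 members, against 17.9% of all genes. The TPM at fraction 5 was at least 1.5 times the mean of fractions 4 and 6 in both gradients for 5 members (11.9%, against 5.81% of all genes). These were Rab5b, Rab6a, Rab31, Rab33b and Rab2b. Rab6a, a Golgi Rab, went from 58.4 TPM at fraction 4 to 105.0 TPM at fraction 5 and 43.9 TPM at fraction 6 of gradient 1, and from 62.3 to 92.1 and 54.9 TPM in gradient 2. Rab33b, a Golgi and autophagy Rab, went from 16.7 to 25.1 and 11.5 TPM, and from 12.7 to 18.5 and 10.3 TPM. The median 3′ UTR of the 5 members was 2355 bases and that of the others 1329 bases.

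Members with longer 3′ UTRs tended to be lighter. Over the 42 tested members, Spearman's rank correlation between 3′ UTR length and the change from light to dense was -0.474, and over 10817 genes with an annotated coding sequence it was -0.334. For the whole transcript the values were -0.486 and -0.185, and for the coding sequence, which varies little among Rabs (585 to 846 bases), -0.174 and 0.0969. Genes are not independent replicates and 1 annotated transcript stood for each gene, so these are descriptions. The 15 RNAs that fell had a median 3′ UTR of 2359 bases and the 3 that rose 1329 bases. Rab28 was an exception among the light RNAs with 794 bases, as was Rab4a with 611 bases. Between light and middle, the 14 RNAs that rose had a median 3′ UTR of 925 bases and the 5 that fell 3172 bases. The lengths were alike from middle to dense, with 1571 bases for the 23 RNAs that fell and 1550 bases for the 19 not called, and from light to dense the 24 not called had 1263 bases.

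**Figure D5:**
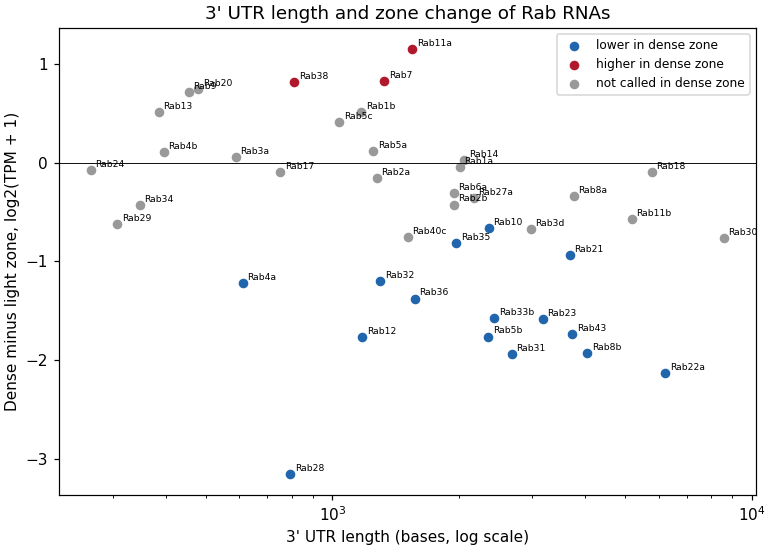
Dense minus light zone on the log2(TPM + 1) scale against annotated 3′ UTR length in bases (log axis) for the 42 tested Rab genes, coloured by call. Rab28 lies lowest at 794 bases, Rab22a low at 6224 bases and Rab11a highest at 1550 bases.

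Members that fell from light to dense were found with each placing of the cysteine codons, beside 39.6% of all genes that fell and 22.3% that rose. Of 13 tested members that end in 2 cysteine codons, 7 fell from light to dense, with a median of -0.66. Of 10 with cysteine as the last and third-from-last codon, 3 fell and 1, Rab7, rose, with a median of -0.33. Of 8 whose only cysteine among the last 4 codons lies ahead of 3 others, 3 fell and 1 rose, and their changes ran from -3.15 for Rab28 to 0.82 for Rab38. Of 7 with a pair ahead of 1 or 2 further codons, 1 fell, Rab5b, with a median of -0.07, and of 4 with a pair ahead of 3, 1 fell, Rab21, and 1 rose, Rab11a, with a median of -0.66. In the blocked fit 50.0% of all genes fell and 30.5% rose. The falls in these 5 classes, in the order given, were then 8 of 13, 5 of 10, 5 of 8, 2 of 7 and 3 of 4. The rises were 2, 1, 1, 2 and 1.

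The RNAs of proteins that load, lipidate and recycle Rabs went in both directions too. Of 10 genes of Rab prenylation and recycling, 3 rose from light to dense (where 22.3% of all genes did) and 6 fell (60.0%, where 39.6% did). The 2 subunits of the geranylgeranyl transferase went apart, with Rabggta, the alpha subunit, rising by 1.56 ± 0.165 (adjusted p = 0.000786) from 13.6 and 14.7 TPM in the light zones of gradients 1 and 2 to 44.1 and 38.7 TPM in the dense zones. Rabggtb, the catalytic beta subunit, fell by 2.28 (SE 0.181, adjusted p = 0.000402) from 125.8 and 100.7 TPM to 23.2 and 21.3 TPM. Rabif, a chaperone of nucleotide-free Rabs, fell by 1.95 (SE 0.352, adjusted p = 0.00481).

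Of 40 Rab GEFs, 5 rose (12.5%) and 14 fell (35.0%) from light to dense, beside 22.3% and 39.6% of all genes. In the blocked fit it was 10 and 22, beside 30.5% and 50.0%. Dennd1b fell by 2.43 (SE 0.231, adjusted p = 0.000598) and Dennd6a by 2.26 (SE 0.21, adjusted p = 0.000572), both of the DENN domain family. Hps1, a subunit of the exchange factor for Rab32 and Rab38, rose by 1.42 ± 0.337 (adjusted p = 0.0131), and Sh3bp5, an exchange factor for Rab11, by 1.12 ± 0.3 (adjusted p = 0.0202). Of 14 TRAPP subunits, which form exchange complexes for Rab1 and Rab11, 6 rose (42.9%) and 2 fell (14.3%). In the blocked fit 7 rose and 2 fell. Trappc6b fell by 3.42 (SE 0.377, adjusted p = 0.000882) and Trappc10 by 1.49 (SE 0.26, adjusted p = 0.00427), while Trappc12 rose by 1.73 ± 0.229 (adjusted p = 0.00156) and Trappc11 by 1.55 ± 0.245 (adjusted p = 0.00295).

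Of 36 Rab GAPs, 5 rose (13.9%, where 22.3% of all genes did) and 13 fell (36.1%, where 39.6% did). With the block 9 rose and 15 fell (25.0% and 41.7%), beside 30.5% and 50.0% of all genes. Tbc1d20, a GAP for Rab1, fell by 3.15 (SE 0.212, adjusted p = 0.000321), from 95.1 and 72.3 TPM in the light to 7.4 and 8.96 TPM in the dense zone. Tbc1d14 fell by 1.94 (SE 0.452, adjusted p = 0.0122), Tbc1d17 rose by 2.46 ± 0.365 (adjusted p = 0.00234) and Sgsm3 rose by 1.74 ± 0.43 (adjusted p = 0.015). Of 62 effectors, 19 rose (30.6%) and 13 fell (21.0%), with a median of 0.04. In the blocked fit 25 rose (40.3%) and 23 fell (37.1%). Vps16 of the endosomal tethering complexes rose by 2.34 ± 0.315 (adjusted p = 0.00165) and the lipid kinase Pik3c3 rose from 9.09 and 7.43 TPM in the light to 47.4 and 33.4 TPM in the dense zone (adjusted p = 0.00157). Rab11fip2, an effector of Rab11, fell by 1.92 (SE 0.267, adjusted p = 0.00182) and Dennd5a, a binding partner of Rab6, by 1.72 (SE 0.173, adjusted p = 0.000694).

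Other branches of small GTPases had, beside the Rabs, few risers from light to dense. Of 25 Arf, Arl and Sar1 genes 3 rose and 11 fell (12.0% and 44.0%), of 18 genes of the Ras list, which holds Ran beside Ras, Rap and Ral relatives, 1 rose, the nuclear transport GTPase Ran, and 10 fell (5.56% and 55.6%), and of 5 Rab-like genes 1 rose and 1 fell. Of all genes 22.3% rose and 39.6% fell. With the block 7 rose and 14 fell in the Arf list, 2 and 12 in the Ras list, and 2 and 1 of the Rab-like genes. The blocked shares of all genes were 30.5% and 50.0%. From middle to dense, 12 of the 18 genes of the Ras list fell (16 with the block), as did 6 of the 25 Arf, Arl and Sar1 genes (13 with the block). Beside them 22.5% of all genes fell, and 39.3% with the block. The differences between these branches and the Rabs were not tested.

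Below the dense zone, gradient 2 alone held fractions 22 to 24. The ratio of mean TPM there to that of its fractions 16 to 19 was under 1 in 35 of 42 members, with a median of 0.861 beside 0.915 over all genes. It was 0.609 for Rab11a and 0.592 for Rab38, and 1.17 for Rab20. These come from 1 gradient and have no replicate.

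A few members were too scarce for the test. Rab39 (0.737 and 0.554 TPM on average in gradients 1 and 2), Rab40b (0.701 and 0.895 TPM) and Rab42 (0.685 and 0.283 TPM) were below a mean of 1 TPM over the 24 zone libraries. Rab19, Rab25 and Rab3b were listed in gradient 1 only, at means of 0.644, 0.288 and 0.311 TPM, and Rab7b in gradient 2 only, at 0.418 TPM. Of the 45 members in both tables, 15 overlap another annotated gene on the same strand and 14 one on the opposite strand.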

How the data were processed

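The authors deposited 1 table of TPM per gradient, with a column per fraction, made with Kallisto against an mm10 RefSeq index after bcl2fastq 2.16.0.10. The Kallisto version, its strand setting and the summing of transcripts to genes are not given in the sources used here. Per the file values, the deposited TPM tables hold 13982 and 13634 genes, each above 1 TPM in at least 1 fraction, and sum to 998099 to 999202 per library. TPM keeps no depth, so no counting interval was computed. All 39 libraries were used, 24 of them in the zones.

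Zone means of log2(TPM + 1) were compared with limma 3.58.1 (empirical Bayes with a trend, no block, R 4.3.3) over 6 values, 2 gradients by 3 zones, for genes in both tables with a mean of at least 1 TPM. The unblocked procedure was also run on simulated data in which zone values were drawn independently. That run could not show how correlation between the zones of a gradient affects the calls. Zones of 1 gradient came from the same homogenate, and their deviations from the zone means correlated across 11754 genes (r of 0.665 light to middle, 0.54 light to dense and 0.798 middle to dense), so blocked counts, and named calls the block changed from light to dense, are given beside the results. The paper describes the gradients as independent biological replicates. Gene features came from GENCODE M21 (GRCm38, the assembly also called mm10), with 1 transcript per gene. Named members were the 10 most abundant, the 8 largest rises and falls from light to dense, all tested paralog pairs and those left out of the test, and from each pathway list at most 2 rises and 2 falls. Genes named outside it (such as Rab6a, Rab17, Rab21, Rab24, Rab27a, Rab29 and Rab34) were chosen after their values were seen. The members and lists were chosen with earlier results of these data known. Alternatives were another pseudocount, filters, 2 scalings, other zone limits, averaging before the log, the block and leaving out each zone value.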

Additional observations from a re-analysis of the deposited data

How the results depend on the processing

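From light to dense, the members' median of -0.427 became -0.542 with a pseudocount of 0.1, -0.319 with a mean of at least 10 TPM, -0.29 after quantile normalization (5 higher) and -0.553 with narrow zones. With the gradient as a replicate block, 7 members were higher and 23 lower. Leaving out 1 zone value of 1 gradient gave 1 to 8 higher, 12 to 17 lower and medians of -0.567 to -0.325. From light to middle, the 5 lower became 3 with a mean of at least 10 TPM (median 0.535), 11 after quantile normalization (median 0.122), 8 without the 50 most abundant genes (median 0.096), 10 with narrow zones and 10 with the block, and the 14 higher became 9 with wide zones (median 0.131). Leaving out 1 value gave 5 to 16 higher, 1 to 5 lower and medians of -0.061 to 0.536. From middle to dense, quantile normalization gave 1 higher and 15 lower (median -0.565), rescaling without the 50 most abundant genes 1 higher, and the block 1 higher. Leaving out 1 value gave 0 to 23 lower, 0 or 1 higher and medians of -1.047 to -0.708. The 0 lower calls arose where a middle-zone value was left out, when 0 of 11754 genes were called. The cause of the other shifts was not tested. In these fits the lone value is assumed to vary like the other zones. The members' median center of 11.32 became 11.88 over all fractions and 11.64 after quantile normalization, and the median R between members of 0.494 over 22 fractions of gradient 2 was 0.251 over the 17 of gradient 1. No member called in either fit turned its direction, and 75 sign changes over 22 members were uncalled in both. Apart from the counts and members given here and beside the results, the block changed calls only by adding 12 members from light to dense, 9 from light to middle and 9 from middle to dense. That there are 2 gradients limits every test, and TPM gives no depth.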
